A study of Mus musculus with 6 samples.

Results

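Of the 24421 genes in the deposited count table, 10 were examined: Sf3b1, Srsf2, U2af1, U2af2, Zrsr1, Zrsr2, Prpf8, Ddx41, Luc7l2 and Srsf1, chosen by symbol. They encode splicing factors whose human genes are recurrently mutated in myelodysplastic syndromes and related myeloid neoplasms, together with close partners: Zrsr1 and Srsf1 are included as relatives of Zrsr2 and Srsf2. All 10 were found, and all 10 passed the filter on low counts that left 13411 genes for testing. RNA was sequenced from Lin-CD117+ bone marrow cells of female CByB6F1 mice aged 2 to 5 months, a fraction depleted of mature lineages and carrying the KIT receptor. The 3 untreated libraries (pools 1, 2 and 3) and the 3 RUX libraries (pools 4, 5 and 6) each held cells of 2 to 3 mice of one group. RUX is ruxolitinib, an inhibitor of the kinases JAK1 and JAK2; the sources used here give neither its dose nor its duration. Both groups were normal mice without a splicing factor mutation named in the labels, so the comparison concerns transcript levels of the normal genes.

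Pre-mRNA splicing removes introns through stepwise assembly of small nuclear ribonucleoproteins. U1 recognises the 5′ splice site, the U2AF heterodimer binds the 3′ splice site and its polypyrimidine tract, and U2, with SF3B1 as the scaffold of its SF3b part, engages the branch point before the U4/U6.U5 tri-snRNP joins. In blood stem cells, mutations in these factors are mostly heterozygous and usually exclude each other, and most of them alter splice site or exon choice rather than stop splicing.

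The study asked what ruxolitinib does to the transcriptome of stem and progenitor cells. None of the 10 splicing factor genes differed between treatments by the test (0 of 10; edgeR quasi-likelihood test, Benjamini-Hochberg adjusted p under 0.05), and 0 of all 13411 genes did (percent called 0). Before adjustment, 254 genes had a p under 0.05 (1.89% of those tested; 0.85% on the higher and 1.04% on the lower side). Among them was 1 of the 10, Prpf8, the core protein of the U5 particle, which stood 1.32-fold higher with RUX (95% interval 1.04 to 1.67). No member had RUX values entirely above or below the untreated values, a pattern seen in 837 genes (6.24%). Of the 10, 7 had positive log2 fold changes (49.2% of tested genes). That count depended on single pools: without untreated pool 1, Srsf2 (-0.04), U2af1 (-0.15), U2af2 (-0.006) and Zrsr2 (-0.09) had negative values. The 9 members other than Prpf8 had folds between 0.859 (Ddx41) and 1.06 (Luc7l2). The intervals bound how large a difference could have gone unseen: for all 10 the 95% interval of the fold lay within 2-fold in either direction, as it did for 80.9% of tested genes, and for 7 of 10 it lay within 1.5-fold (56.8% of tested genes).

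Depth was 27354768 to 38691826 counted read pairs in untreated and 46027491 to 48747137 in RUX pools. On the first principal component of log2(CPM + 1), which held 39.7% of the variance, untreated pool 3 (24.1) and RUX pool 4 (19.5) lay apart from the other 4 pools (-16.5 to -3.04). The labelled cell type carried its markers. Kit measured 196 CPM (counts scaled to the TMM-adjusted library total) in untreated pool 3, 295 CPM in RUX pool 4 and 409 to 471 CPM in the other 4. Cd34 measured 362 to 529 CPM. Markers of other lineages were also present, with none of any list at 0 in all pools. Their summed levels in untreated and RUX pools were 367 to 441 and 334 to 578 CPM for 4 erythroid markers, and 397 to 684 and 371 to 487 CPM for 5 monocyte and dendritic markers. The 4 B lymphoid markers summed to 104 to 142 and 89.1 to 137 CPM, and the 4 T and NK markers, mostly Lck, to 23.9 to 26.9 and 16.7 to 22.8 CPM. The summed level of 8 neutrophil markers ranged from 163 to 2384 CPM in untreated and from 355 to 1490 CPM in RUX pools. That of 4 eosinophil markers was 234 CPM in untreated pool 3 and 225 CPM in RUX pool 4 against 39.2 to 90.2 CPM in the other 4. The stem and progenitor list held 6 genes: Kit, Cd34, Flt3, Gata2, Myb and Ptprc, of which Ptprc is a general leukocyte gene. They summed to 1409 CPM in untreated pool 3 and 1769 CPM in RUX pool 4, and to 1717 to 2041 CPM in the other 4. The part of these cells in the results on the splicing factors was not tested. In pooled bulk RNA, fewer cells of a type and less RNA per cell cannot be told apart.

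Promoter sequences are shown for 4 genes on which the results turn: Srsf2, the most abundant member; Prpf8, the member with the smallest p; and Zrsr1 and Zrsr2, relatives with very different levels. Each run is the 250 bases before the annotated start, 5′ to 3′ on the gene's strand, from RefSeq on GRCm38.p6, the assembly that mm10 also represents. The windows are chr11:116853095-116853344 (minus strand) for Srsf2, chr11:75486527-75486776 (plus) for Prpf8, chr11:22971755-22972004 (plus) for Zrsr1 and chrX:163958667-163958916 (minus) for Zrsr2. Capitals mark matches on either strand to the CCAAT box (CCAAT), the TATA box (TATAAA) or the STAT dimer motif (TTCNNNGAA).
Srsf2: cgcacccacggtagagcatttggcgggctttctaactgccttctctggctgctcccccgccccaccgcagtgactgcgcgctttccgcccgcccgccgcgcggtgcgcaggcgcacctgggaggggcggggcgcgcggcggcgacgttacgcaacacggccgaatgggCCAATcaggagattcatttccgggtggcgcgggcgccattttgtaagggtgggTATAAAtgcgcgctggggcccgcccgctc
Prpf8: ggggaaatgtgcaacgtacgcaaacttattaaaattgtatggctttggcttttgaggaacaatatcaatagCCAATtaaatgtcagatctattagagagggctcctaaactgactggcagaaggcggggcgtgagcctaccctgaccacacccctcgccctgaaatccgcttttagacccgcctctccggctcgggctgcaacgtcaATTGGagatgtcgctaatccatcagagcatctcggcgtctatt
Zrsr1: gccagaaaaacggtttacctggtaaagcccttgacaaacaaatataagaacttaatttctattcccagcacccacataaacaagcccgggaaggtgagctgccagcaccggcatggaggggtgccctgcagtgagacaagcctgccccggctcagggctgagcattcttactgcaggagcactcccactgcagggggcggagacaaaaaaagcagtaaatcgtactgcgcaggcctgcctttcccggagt
Zrsr2: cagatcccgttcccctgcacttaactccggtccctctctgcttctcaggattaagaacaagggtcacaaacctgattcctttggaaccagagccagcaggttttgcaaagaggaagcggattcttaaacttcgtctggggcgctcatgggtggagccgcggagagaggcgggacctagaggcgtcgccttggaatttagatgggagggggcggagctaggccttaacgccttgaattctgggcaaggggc
Sequences were matched for 9 of the 10 members, all but U2af2. The STAT motif, the DNA element of the factors that JAK kinases activate, had no match in the windows of these 9 genes. It occurred in 7.02% of 32851 promoter windows of the same length, so 9 genes are too few to differ from that share. The Luc7l2 window (chr6:38555473-38555722, plus) lies inside the gene as counted, which begins at 38551444. The region before that first base was not searched. Srsf2 held 1 TATA box, present in 12.4% of windows, and 1 CCAAT box, present in 33.8%. Prpf8 held 2 CCAAT boxes, one on each strand, and neither Zrsr1 nor Zrsr2 held any of the 3 motifs. The Srsf2 window had 33 CpG dinucleotides and the Zrsr1 window 8, where the median window had 6. A match is a description of letters, and an absent one says nothing about binding elsewhere.

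Levels per length, as TPM (counts divided by exon length and scaled to the library), spread over nearly 3 orders of magnitude among the members. Srsf2 was highest, with a median of 980 TPM over the 6 pools (892 to 1110), followed by U2af1 (470, from 336 to 502) and Srsf1 (301, from 211 to 334). Sf3b1 (167 TPM, from 125 to 179) and U2af2 (158 TPM, from 122 to 176) came next and overlapped each other. Ddx41 (46.5 TPM, from 37.2 to 65.7) and Prpf8 (32.2 TPM, from 22.3 to 43.1) overlapped as well. Luc7l2 (18.2 TPM, from 17.1 to 21.3), Zrsr2 (12.2 TPM, from 9.42 to 13.3) and Zrsr1 (1.12 TPM, from 0.540 to 1.34) closed the order. Apart from those 2 pairs, the ranges of adjacent members did not meet on these exon lengths. U2af1 and Srsf1 were separated by only 336 against 334 TPM. TPM depends on the length used. Luc7l2 has 6410 exon bases and Zrsr2 5996, but their longest coding transcripts in GENCODE M21 have 4253 and 3867. Those of U2af1 and Srsf1 have 1046 and 5362, against 974 and 5560 exon bases. At the transcript lengths the ranges of U2af1 and Srsf1 would meet, and so would those of Prpf8 and Luc7l2. Their separation therefore holds only on the exon lengths used.

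**Figure D1:**
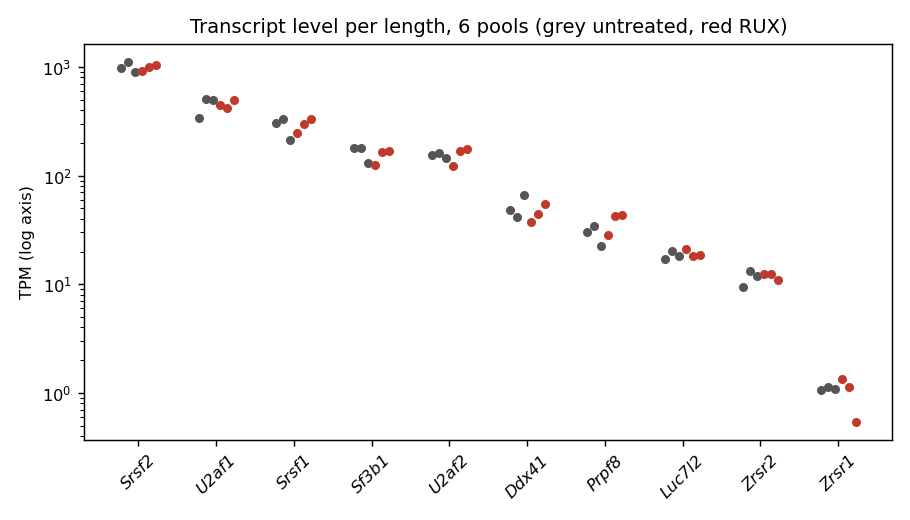
TPM on a log axis for the 10 genes in order of their median; each point is 1 pool, grey for untreated and red for RUX. The order runs from Srsf2 at a median of 980 TPM to Zrsr1 at 1.12 TPM, and grey and red points of a gene intermingle.

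Among the factors of branch point and 3′ splice site recognition, neither Sf3b1 nor the U2AF genes separated the groups. Sf3b1 (chromosome 1, 54985170 to 55027478, minus strand, mm10) measured 594, 588 and 500 CPM in untreated pools 1, 2 and 3 and 488, 553 and 548 CPM in RUX pools 4, 5 and 6. Its lowest values were in untreated pool 3 and RUX pool 4, and the groups overlapped. The log2 fold change was -0.08 ± 0.14 (SE), with an interval of -0.39 to 0.23 and an edgeR adjusted p of 1.00. It was negative in each of the 15 alternative settings (-0.16 to -0.02).

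U2af1 (chromosome 17, 31647082 to 31658754), the small U2AF subunit that reads the AG at the intron end, measured 176, 260 and 295 CPM in untreated and 275, 220 and 254 CPM in RUX pools. Untreated pool 1 was the low one, and the highest values were in untreated pool 3 and RUX pool 4. The coefficient of variation was 25.2% among untreated pools, where the median of tested genes with at least 5 CPM was 13.8%. Its log2 fold change was 0.04 ± 0.19 (SE; edgeR adjusted p = 1.00). Of the 50-base stretches of its longest coding transcript in GENCODE M21, 59.4% also occur in transcripts of another gene, mostly a processed pseudogene, so read pairs from those stretches may not have been placed uniquely and its level is uncertain.

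U2af2 (chromosome 7, 5062143 to 5079945), the large subunit that binds the polypyrimidine tract, was one of the steadiest members. It measured 184, 188 and 194 CPM in untreated and 170, 200 and 202 CPM in RUX pools; the change was 0.01 ± 0.14 (SE) in log2 terms, with an edgeR adjusted p of 1.00. RUX pools held both the lowest and the highest value. A smaller share of its 50-base stretches, 29.9%, recurs in other genes, chiefly the processed pseudogene Gm5846. The ratio of U2af1 to U2af2 in TPM was 2.16, 3.11 and 3.43 in untreated and 3.65, 2.49 and 2.84 in RUX pools, and the groups overlapped in part: RUX pool 4 lay above and untreated pool 1 below the range of the other group.

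The minor spliceosome, which removes the rare U12-type introns, uses ZRSR2 to recognise their 3′ splice site. Zrsr2 (chromosome X, 163935443 to 163958666) measured 30.3, 42.5 and 43.9 CPM in untreated and 47.5, 40.0 and 34.6 CPM in RUX pools. Its log2 fold change was 0.06 ± 0.18 (SE; edgeR adjusted p = 1.00), and the highest values were again in RUX pool 4 and untreated pool 3. Zrsr1 (chromosome 11, 22972005 to 22976496), an intronless relative that is imprinted in mice, lies within the span of Commd1 on the opposite strand and shares no exon base with it in the deposited annotation. Counting set no strand option, so read pairs from Commd1 RNA that still held its introns could not be told apart from those of Zrsr1.

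Zrsr1 was counted with 71, 106 and 110 read pairs in untreated and 164, 135 and 64 in RUX pools, which is 2.54, 2.71, 3.02, 3.80, 2.77 and 1.27 CPM. RUX pools 4 and 6 were the extremes, 2.99-fold apart, and the untreated values lay between them. The change of -0.08 ± 0.36 (log2, SE; edgeR adjusted p = 1.00) had the widest interval of the members, -0.86 to 0.69, and turned to 0.25 without RUX pool 6. Per exon length, Zrsr2 exceeded Zrsr1 8.95- to 11.7-fold in untreated pools and 9.36-, 10.8- and 20.4-fold in RUX pools 4, 5 and 6. The size of these folds depends on the lengths used. Zrsr2 has 5996 exon bases but 3867 in its longest coding transcript, where Zrsr1 has 4492 by either measure. In the same orientation, the 2 genes shared no 50-base stretch of their longest coding transcripts with each other or with another annotated transcript. The reverse complement was not searched.

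SR proteins bind exonic enhancers and promote inclusion of the exon. Srsf2 (chromosome 11, 116849897 to 116853094), the gene whose promoter carries the TATA and CCAAT boxes printed above, measured 989, 1123 and 1043 CPM in untreated and 1103, 1018 and 1045 CPM in RUX pools. It varied least of the 10 members across pools (1.14-fold between the highest and the lowest) and had a log2 fold change of 0.005 ± 0.139 (SE), an interval of -0.29 to 0.30 and an edgeR adjusted p of 1.00. Srsf1 (chromosome 11, 88047373 to 88053757) measured 902, 988 and 720 CPM in untreated and 873, 900 and 961 CPM in RUX pools. The single low value was that of untreated pool 3; the log2 fold change was 0.07 ± 0.15 (SE; edgeR adjusted p = 1.00) and became -0.05 without that pool. The ratio of Srsf1 to Srsf2 in TPM ran from 0.236 in untreated pool 3 to 0.315 in RUX pool 6.

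Prpf8 (chromosome 11, 75486777 to 75509447) encodes the U5 protein at the catalytic centre of the spliceosome. It measured 122, 136 and 102 CPM in untreated pools 1, 2 and 3 and 134, 171 and 169 CPM in RUX pools 4, 5 and 6. RUX pools 5 and 6 stood above every untreated pool, whereas RUX pool 4 fell just below untreated pool 2, so the groups overlapped. The means were 120 ± 16.9 and 158 ± 20.7 CPM (SD, n = 3 pools each). The log2 fold change was 0.40 ± 0.16 (SE), with an unadjusted p of 0.0253 and an adjusted p of 1.00 in edgeR, so it did not pass. It stayed positive in the 15 alternative settings (0.29 to 0.51), in which the smallest adjusted p was 0.800. Its unadjusted p rose above 0.05 in 4 of the 6 fits that left out 1 pool: 0.0516 without untreated pool 1, 0.0904 without untreated pool 3, 0.113 without RUX pool 5 and 0.0753 without RUX pool 6 (edgeR).

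Luc7l2 (chromosome 6, 38551444 to 38609470), a U1-associated factor of 5′ splice site choice that is lost or mutated in myeloid neoplasms, measured 58.9, 68.3 and 71.1 CPM in untreated and 86.1, 62.5 and 61.7 CPM in RUX pools. RUX pool 4 was the high one; the log2 fold change was 0.08 ± 0.16 (SE; edgeR adjusted p = 1.00) and became -0.08 without it. In Luc7l2, 10.1% of the 50-base stretches recur in 83 other genes, most often the processed pseudogene Gm11889. Read pairs from those stretches may not have been placed uniquely. The paralog Luc7l is not among the 10 and was named by the smallest p of its list. It measured 109, 110 and 110 CPM in untreated and 131, 146 and 141 CPM in RUX pools. These groups did not overlap, and the log2 fold change was 0.35 ± 0.13 (SE; unadjusted p = 0.0192, adjusted p = 1.00 in edgeR); its unadjusted p was 0.101 without RUX pool 5. The ratio of Luc7l2 to Luc7l in TPM was 0.560, 0.644 and 0.672 in untreated and 0.679, 0.442 and 0.453 in RUX pools, where RUX pool 4 was the highest of all 6 and RUX pools 5 and 6 the lowest.

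Ddx41 (chromosome 13, 55530410 to 55536658), a DEAD-box helicase whose human gene carries germline and acquired mutations in myeloid neoplasms, measured 57.1, 48.8 and 89.0 CPM in untreated and 51.9, 53.1 and 62.6 CPM in RUX pools. Untreated pool 3 alone was high, and the other 5 pools lay between 48.8 and 62.6 CPM. Its change of -0.22 ± 0.20 (log2, SE; edgeR adjusted p = 1.00) was the most negative of the members. That direction came from 1 pool: without untreated pool 3 the value was 0.08.

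**Figure D2:**
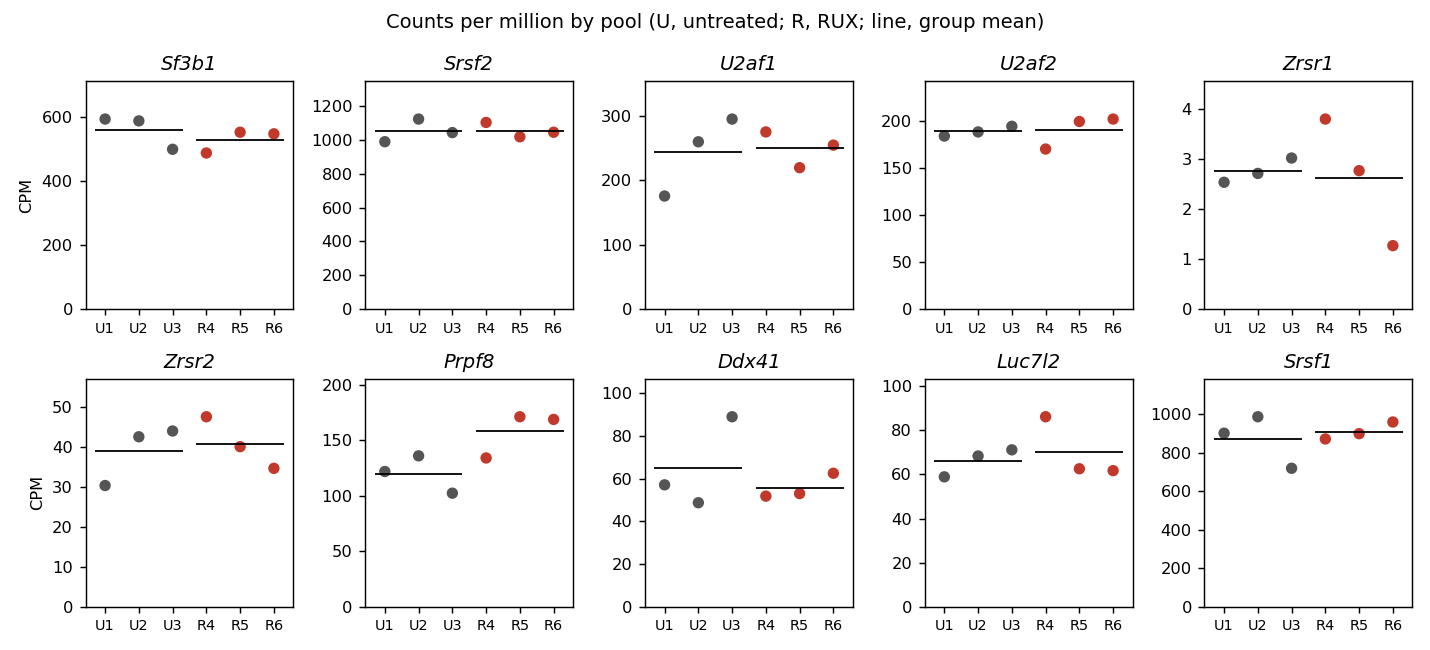
CPM of each gene in the 6 pools, on linear axes from 0; U marks untreated and R RUX pools, and lines are group means (n = 3 each). The means of Prpf8 (120 and 158 CPM) differ most in proportion, and single pools stand out for Ddx41 (U3), U2af1 (U1) and Zrsr1 (R6).

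**Figure D3:**
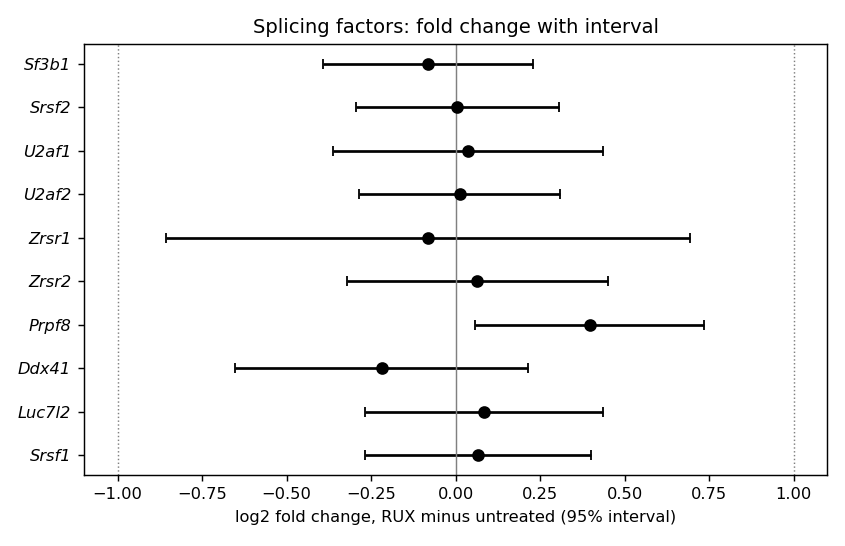
Log2 fold change, RUX minus untreated, with 95% intervals from the edgeR fit; dotted lines mark 2-fold in either direction. Only the interval of Prpf8 (0.06 to 0.74) excludes 0 before adjustment over 13411 genes, and all 10 lie within the dotted lines.

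For every member except Prpf8, the larger of the group SDs between pools exceeded the difference of the group means. The 2 highest values lay in untreated pool 3 and RUX pool 4 for 4 of the 10 (U2af1, Zrsr1, Zrsr2 and Luc7l2), against 15.3% of tested genes, and the 2 lowest values lay there for Sf3b1 and Srsf1, against 16.6%. These are the pools that stood apart over all genes. Exon length moved with the same pools: the median deviation of the shortest of 4 equal length classes of tested genes (48 to 1773 bases) from their 6-pool mean was 0.14 and 0.13 in them on the log2(CPM + 1) scale, where the remaining pools had -0.11 to -0.04. The longest class (4314 to 104320 bases), which holds 6 of the 10 members including Prpf8 (7481 bases) and Sf3b1 (6191 bases), had its lowest median deviations there, at -0.16 and -0.06. Of those 6 members, Sf3b1 and Srsf1 had their 2 lowest values in these pools, Zrsr1, Zrsr2 and Luc7l2 had their 2 highest there, against the direction of the class, and Prpf8 had neither. The median log2 fold change of that class between treatments was 0.02, against 0.40 for Prpf8. The part of length in the members' values was not tested. With both of these pools left out, Prpf8 had a log2 fold change of 0.40 and Sf3b1 one of -0.10; Ddx41, Luc7l2, Srsf1 and Srsf2 changed sign.

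**Figure D4:**
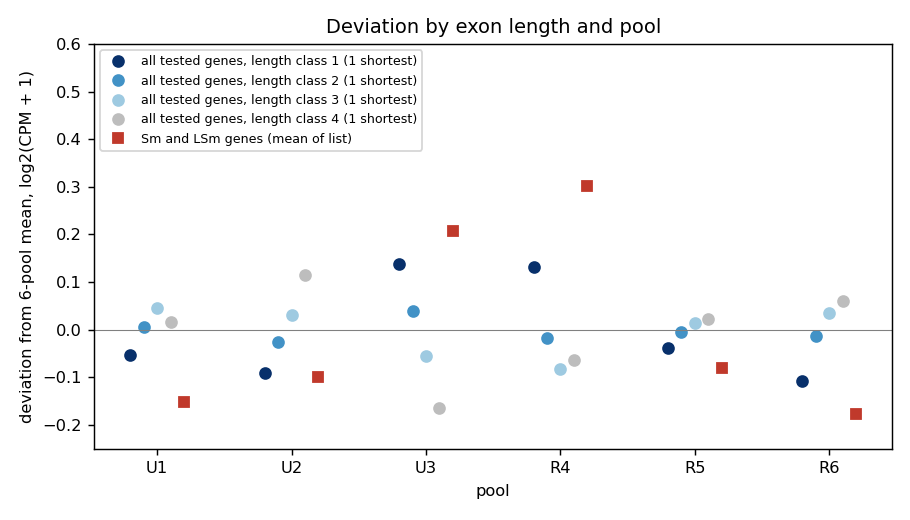
Deviation of each pool from the 6-pool mean, in log2(CPM + 1), as the median over tested genes in 4 equal classes of exon length (circles) and as the mean of the 14 Sm and LSm genes (squares); U marks untreated and R RUX pools. Short genes and Sm and LSm genes sit above 0 in U3 and R4 and below 0 in the other 4 pools.

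Other genes of the splicing machinery did not pass the test either. Of 158 genes tested in 11 lists, 80 leaned higher and 78 lower with RUX; the median log2 fold change was 0.0001 beside -0.004 over all tested genes, and 0 passed the adjusted threshold. Before adjustment 1 gene of the 158, Luc7l, had a p under 0.05 in edgeR, beside 1.89% of all tested genes. One gene lay wholly above and 6 wholly below the untreated pools, beside 2.99% and 3.25% of all tested genes. The 6 lower ones, named after their values were seen, were Crnkl1 of the catalytic spliceosome, the SR protein gene Srsf6, the SR kinase gene Clk3 and the hnRNP genes Hnrnpf, Hnrnpk and Hnrnpr, with log2 fold changes of -0.19 to -0.13.

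The partners of each member can be read beside it. Of the 16 other U2 genes around Sf3b1, 8 were positive and 8 negative (median -0.005); nearest to the threshold were Sugp1 (-0.18), which couples SF3B1 to a branch point helicase, and Sf3b6 (-0.16). The 10 genes of 3′ splice site recognition split 5 and 5, with Rbm39, a U2AF-related factor, at 0.27 and the SF1-phosphorylating kinase gene Uhmk1 at -0.28. The 9 minor spliceosome genes had 3 positive and 6 negative values (median -0.03), with Snrnp48 at 0.19 and Pdcd7 at 0.15. Around Prpf8, the 16 tri-snRNP genes had a median of 0.02 and values from -0.20 (Ppih) to 0.10, and Sart3 stood at -0.11. No other gene of that list reached the value of Prpf8.

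Of the 12 genes of U1 and 5′ splice site choice, beside Luc7l2, 5 were positive and 7 negative (median -0.02); Luc7l3 stood at 0.39, measured 86.6 to 255 CPM across pools, and moved to 0.14 without untreated pool 1, 0.06 without RUX pool 4 and 0.61 without untreated pool 2. The 14 SR protein genes had 6 positive and 8 negative values (median -0.05), with Srsf5 at -0.28 and Son, a large SR-like protein, at 0.29. Of the 9 kinases that phosphorylate SR proteins, 4 were positive and 5 negative (median -0.03), with Clk4 at 0.28 and Srpk2 at -0.23. The 20 hnRNP genes had 12 positive and 8 negative values (median 0.008), with Hnrnpc at -0.19 and Hnrnpf at -0.17. The 22 genes of the catalytic stage had 8 positive and 14 negative values (median -0.03), with Crnkl1 at -0.19 and Snw1 at -0.16. The 16 genes of nonsense-mediated decay and the exon junction complex, the route that removes SR transcripts carrying poison exons, had 12 positive and 4 negative values (median 0.08), with Rbm8a at 0.23 and Upf3b at 0.25. Without untreated pool 1, where this list lay lowest (mean deviation -0.19), the median was 0.01, Rbm8a 0.08 and Upf3b 0.02; without RUX pool 4 they were 0.03, 0.09 and -0.04. None of these named genes passed the test (edgeR adjusted p = 1.00 for each).

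The 14 Sm and LSm genes, which encode ring proteins of the snRNPs, were 8 positive and 6 negative between treatments (median 0.02), with Lsm2 and Snrpf at 0.16. Their variation lay between pools: all 14 had their 2 highest values in untreated pool 3 and RUX pool 4, where the mean deviations of the list were 0.21 and 0.30 against -0.18 to -0.08 elsewhere. Of these genes 13 fall in the shortest length class, in which 39.7% of all genes have their 2 highest values in those pools.

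**Figure D5:**
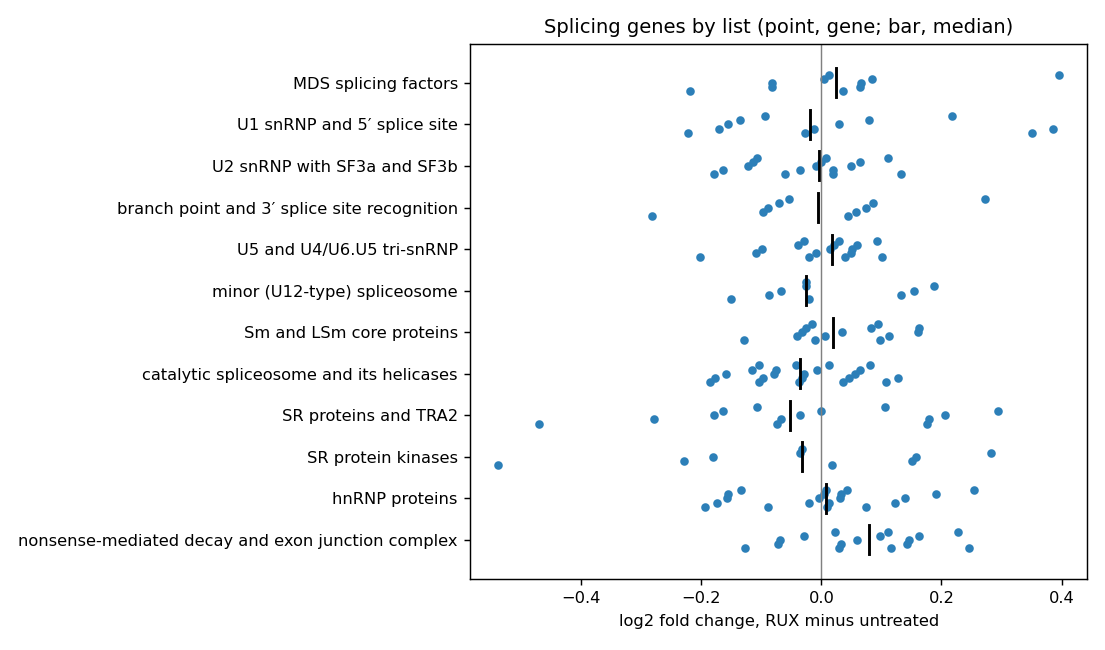
Log2 fold change, RUX minus untreated, of each tested gene in the 10 members (MDS splicing factors) and 11 lists of splicing genes; bars are medians. Medians lie between -0.05 and 0.08, and Prpf8 is the rightmost member at 0.40.

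For the 4 most often mutated factors, the genes with the closest profile over the 6 pools were sought among 9581 others, by the root-mean-square difference of centred log2(CPM + 1). They were Mob3a (0.018) and Mina (0.023) for Sf3b1, Nifk (0.029) and Pink1 (0.029) for Srsf2, Mvk (0.021) and Dynll2 (0.056) for U2af1, and Ogfod2 (0.044) and Prr13 (0.047) for Zrsr2. None of the 8 is a splicing gene of the lists. The lists hold at most 158 of the genes compared, so this absence says little. These differences rest on 6 values per gene and describe likeness across these libraries only.

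Counts per gene do not resolve the transcripts through which these factors regulate themselves. GENCODE M21 annotates transcripts subject to nonsense-mediated decay for 6 of the 10 members: 3 for Luc7l2, 2 each for Srsf2, U2af1, U2af2 and Srsf1, and 1 for Sf3b1. It annotates none for Zrsr1, Zrsr2, Prpf8 and Ddx41. A shift between coding and decay-bound forms within a gene was not analysed here.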

How the data were processed

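The SMART-Seq mRNA LP kit was used for the libraries, per the labels' protocols, and reads were aligned with STAR to mm10, per the submitters' processing notes. The deposited table holds unnormalized read pair counts for each gene, made by featureCounts 2.0.3 with UCSC mm10 exons, per the file headers, with no strand or multi-mapping option set. The deposited table also gives exon length in bases (another deposited value), used here for TPM. Antisense reads therefore cannot be told apart.

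Of 24421 genes, edgeR 4.0.16 (R 4.3.3) kept 13411 by filterByExpr, scaled by TMM (factors 0.938 to 1.03), and tested treatment by the two-sided quasi-likelihood test with Benjamini-Hochberg adjustment at 0.05. CPM use the TMM-scaled library; the SE was computed as the absolute log2 fold change over the root of F. P-values measure the spread between pools of different mice. Counting floors (3 read pairs) lie at 0.0595 to 0.107 CPM and cover counting error only. The members and the 11 splicing lists (160 genes, 158 in the table) were chosen with earlier results of these data known. Named genes were the 10 members, the 2 genes per list with the smallest p among those of at least 5 CPM, and the 2 closest profiles of 4 members (at least 5 CPM, predicted loci left out). Alternatives covered scaling, filters, robust fitting, DESeq2 1.42.0, limma-voom 3.58.1 and left-out pools. The edgeR step was tested on simulated data. Promoters came from RefSeq (GRCm38.p6) and transcripts from GENCODE M21.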

Additional observations from a re-analysis of the deposited data

How the results depend on the processing

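The 10 members stayed uncalled in the 15 alternative settings (0 members each). The number of genes called over the whole table was 0 except with no low-count filter (14 genes, none of them a member) and with limma-voom quality weights (1 gene). The count at an unadjusted p under 0.05 (254) varied more: DESeq2 gave 320 genes, limma-voom 262, quality weights 778, no filter 604 and the 1 CPM filter 176; leaving out 1 pool gave 179 (without RUX 5) to 666 (without untreated 2), and leaving out both pools that stood apart 503. Leaving out 1 pool at a time gave 0 called genes each time; the log2 fold change then ranged from -0.16 to -0.02 for Sf3b1 and from 0.29 to 0.51 for Prpf8, which kept their signs in all settings run. It changed sign for the other 8 members, with ranges of -0.0378 to 0.0635 for Srsf2, -0.152 to 0.198 for U2af1, -0.0315 to 0.0947 for U2af2, -0.445 to 0.249 for Zrsr1, -0.0868 to 0.168 for Zrsr2, -0.379 to 0.0773 for Ddx41, -0.0832 to 0.168 for Luc7l2 and -0.0528 to 0.176 for Srsf1. Among the other named genes, the sign changed in that step for Uhmk1 (-0.576 to 0.0011), Snrnp48 (-0.103 to 0.322) and Upf3b (-0.0415 to 0.409). Others kept their sign over a wide range, such as Luc7l3 (0.0576 to 0.608), Snrpf (0.00841 to 0.274), Sart3 (-0.227 to -0.0047), Sugp1 (-0.258 to -0.0453), Sf3b6 (-0.324 to -0.0398), Ppih (-0.355 to -0.0427) and Rbm8a (0.0760 to 0.367), and the medians of the 11 lists lay between -0.113 and 0.151. With both pools that stood apart (untreated 3, RUX 4) left out, the values that changed sign were -0.0312 for Srsf2, 0.131 for Ddx41, -0.0319 for Luc7l2, -0.0200 for Srsf1, 0.0393 for Sugp1 and -0.0141 for Snrnp48; with quality weights Srsf2 stood at -0.0130. The cause was not tested. No paired analysis was possible because the pool numbers are not shared between the groups. The shallowest library held 27354768 read pairs, and with 64 to 164 read pairs per pool Zrsr1 was the member measured with the least precision.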
